A study of Homo sapiens with 4 samples.

Results

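The 40 genes described here encode chemokines, cytokines and the NF-κB transcription factors with their inhibitors. They were taken by name from the 61806 genes of the table, without a cutoff on measured values. The list was, however, chosen with earlier results of these data known. Chemokines are small secreted proteins that attract leukocytes through G protein-coupled receptors, and cytokines such as the interleukins and colony-stimulating factors control the growth, survival and activation of many cell types. Many of their genes are transcribed when NF-κB dimers, built from subunits such as RELA, RELB, NFKB1 or NFKB2, enter the nucleus after the inhibitor NFKBIA is degraded. NFKBIA and TNFAIP3 are themselves NF-κB targets and restrain the pathway in return. In bone, CSF1 drives the formation of osteoclasts, and IL11, LIF and IL6 act on bone cells through the shared receptor subunit IL6ST.

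RNA came from JJ012, a human chondrosarcoma line, and 143B, a human osteosarcoma line, both grown in suspension. In each line, cells without treatment (control) were set against cells given 1 mM melatonin for 72 h, so that there were 4 libraries with 1 library per condition. Each line stands for a single tumor, and line and library cannot be told apart when the lines are compared. The libraries held between 15889564 and 19218343 counts, and between 13198 and 14477 genes per library reached 1 FPKM (counts per kilobase of exon, scaled to a library total of 1000000). Of the cartilage markers, SOX9 had 1138 counts in the JJ012 control and 967 in the 143B control. COL2A1 had 0 and 2 counts in these libraries, and ACAN 4 and 19. Of the bone markers, RUNX2 had 475 counts in the JJ012 control and 557 in the 143B control. SP7, COL1A2 and IBSP had 8, 2594 and 4 counts in the JJ012 control and 0 counts in the 143B control. SPP1 had 11061 and 46 counts, and COL1A1 1891 and 70. In JJ012, the leukocyte markers also moved with treatment. All 8 of them had at least 1 count in both JJ012 libraries, their sum was 50.2 CPM (counts scaled to a library total of 1000000) in the control and 20.4 CPM after melatonin, and 6 of the 8 were lower beyond counting error. CD3E had 497 and 141 counts, and PTPRC 42 and 4. Endothelial markers went from 18.9 to 7.37 CPM in JJ012, epithelial markers from 85.3 to 64.4, cartilage markers from 62.6 to 25.5 and bone markers from 836 to 498. In 143B the leukocyte markers summed to 3.27 and 2.97 CPM, with 2 of 8 at 0 counts in each library. The cartilage markers summed to 65.7 and 52.0 CPM there, and the bone markers to 44.8 and 31.3. The bone marker sum was thus higher in the chondrosarcoma line than in the osteosarcoma line.

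Without replicates, no difference could be set against the spread between cultures, and no test was made. Each gene's log2 fold change compares the FPKM of the melatonin library plus 1 with that of the control plus 1, over genes with at least 1 FPKM in 1 of the 2 libraries. Here "rose" and "fell" mean an absolute value of at least 0.58. The added 1 FPKM understates the change of low genes, so the ratio of CPM is given beside it with an exact (Clopper-Pearson) 95% interval. This interval covers counting error only. A count of 3 or fewer was treated as the floor, which was between 0.156 and 0.189 CPM.

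Levels before treatment differed widely between the lines. Of the 40 genes, 18 reached 1 FPKM in the JJ012 control and 23 in the 143B control, and 13 did so in all 4 libraries. Those 13 were CCL26, IL11, LIF, CLCF1, CSF1, TNFAIP2, TNFAIP3, NFKBIA, NFKBIZ and the 4 listed NF-κB subunit genes. In contrast, 15 genes stayed below 1 FPKM in all 4 libraries. CCL7 and CXCL6 had 0 counts in every library, which allows up to the floor of 3 counts. CXCL5, CXCL12 and CXCL14 had at most 3 counts. The other 10 of these low genes, namely CCL2, CCL20, CXCL2, CXCL3, CXCL10, CX3CL1, IL24, IL33, IL34 and TNF, reached at most 29 counts in any library, so that small changes in them were not detectable at this depth.

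**Figure D1:**
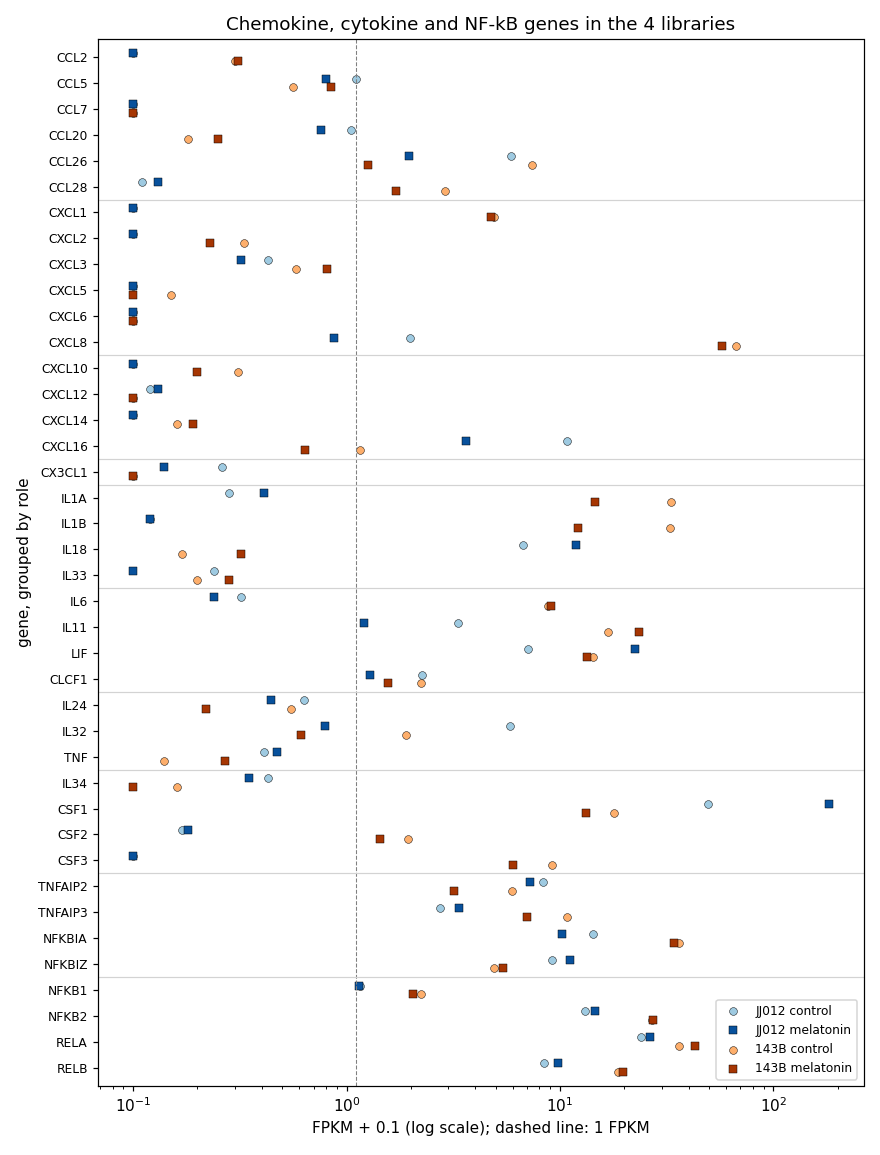
The plot shows the FPKM (with 0.1 added, log scale) of the 40 genes in the 4 libraries, with circles for controls, squares for melatonin, light and dark blue for JJ012 and orange and brown for 143B, 1 library per symbol. CSF1 in JJ012 after melatonin is the highest value (181.36 FPKM), and CXCL8, IL1A and IL1B are high in the 143B libraries alone.

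Among the 25 genes that reached 1 FPKM in either control, 16 were lower and 5 were higher in JJ012 than in 143B, a share of 84% past 0.58. Over all 16929 genes compared, 68.7% were past 0.58, with 41.3% higher and 27.4% lower in JJ012. By the interval of the CPM ratio, 7 of the 25 were higher and 16 lower in JJ012 beyond counting error, against 50.8% and 35.1% of all genes. The median gene was higher in JJ012 by 0.29 on this scale and by -0.01 with TPM, with which 4 of the listed genes were higher and 17 lower. The widest gap was in the interleukin-1 genes, which encode inflammatory cytokines. IL1B had 1 count in the JJ012 control and 1566 in the 143B control (0.02 and 32.75 FPKM), a log2 ratio of CPM of -10.89 with an interval of -16.19 to -8.41. IL1A had 7 and 1056 counts (0.18 and 32.95 FPKM). Neither gene had more than 10 counts in a JJ012 library, treated or not.

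The other genes with low levels in JJ012 included several neutrophil-related factors. CXCL8, which attracts neutrophils, had 93 counts in the JJ012 control and 2748 in the 143B control (1.87 and 66.83 FPKM), which was 35.7-fold lower in JJ012. CSF3, the granulocyte colony-stimulating factor, had 0 counts in JJ012 and 321 in 143B, so that it was at least 129-fold lower when the JJ012 library is set to the floor. CXCL1, a further neutrophil attractant, had 0 and 104 counts, 41.9-fold lower at the floor and at least 33.5-fold lower by the interval. Part of the CXCL1 sequence is shared with its paralogs. Of its distinct runs of 31 bases in GENCODE transcripts, 13.0% also occur in CXCL2 and 3.16% in CXCL3, so reads could have been split or dropped among the 3 genes. IL6 had 18 and 599 counts, 40.2-fold lower in JJ012. CCL28, which binds CCR10, had 1 and 201 counts, and CSF2, which acts on macrophages and granulocytes, had 1 and 23 counts. The log2 ratio of CCL28 was -7.93 with an interval of -13.24 to -5.43, and that of CSF2 was -4.80 with an interval of -10.16 to -2.17.

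The 5 genes that were higher in JJ012 were IL18, CXCL16, IL32, CSF1 and NFKBIZ. IL18, an interleukin-1 family cytokine that is made as a precursor, had 332 counts in the JJ012 control and 3 in the 143B control (6.63 and 0.07 FPKM), a log2 ratio of 6.52 with an interval of 4.96 to 8.80. CXCL16, a transmembrane chemokine that binds CXCR6, had 10.73 and 1.06 FPKM, 10.1-fold higher. IL32 had 5.74 and 1.80 FPKM, CSF1 had 49.00 and 17.84 FPKM, and NFKBIZ, a nuclear IκB protein, had 9.02 and 4.80 FPKM. The log2 fold change of NFKBIZ was 0.79, but with TPM it was 0.51, within 0.58. The 4 listed NF-κB subunit genes were lower in JJ012, with log2 fold changes between -1.07 and -0.58. RELA had 23.72 and 35.98 FPKM, and its value of -0.58 lay at the limit, while NFKB1 went from -0.61 to -0.33 with the length trend removed and was then within 0.58. NFKBIA was 2.54-fold and TNFAIP3 4.03-fold lower by CPM. CCL26 (5.77 and 7.25 FPKM) and CLCF1 (2.15 and 2.13 FPKM) did not pass 0.58 between the controls, with log2 ratios of CPM of -0.33 (interval -0.80 to 0.14) and 0.02 (interval -0.48 to 0.53). With the length trend removed, however, their log2 fold changes were -0.78 and -0.86, and with TPM that of CCL26 was -0.68.

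**Figure D2:**
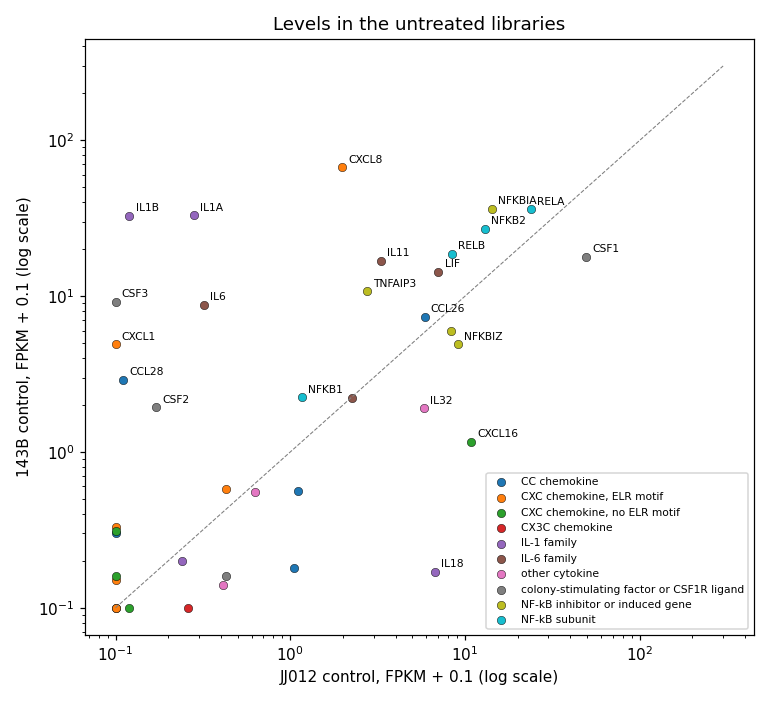
Each point is 1 of the 40 genes, with its FPKM (0.1 added, log scales) in the JJ012 control on the horizontal axis and in the 143B control on the vertical axis, and colors show the gene's role. Genes past 0.58 and CCL26 are named, and besides CCL26 16 named genes lie above the dashed line of equal levels against 5 below it.

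After melatonin, 8 of the 18 genes that passed the filter in JJ012 were past 0.58, with 3 higher and 5 lower. That is 44.4% of them, against 38.2% of all 15794 genes compared, of which 19.6% rose and 18.6% fell, so the share was near that of all genes. In 143B, 5 of the 23 genes that passed fell and 0 rose, which is 21.7% against 12.7% of all 14135 genes, of which 6.09% rose and 6.65% fell. The median log2 fold change of the genes that passed was -0.10 in JJ012 and -0.29 in 143B, and that of all genes was 0.01 and 0.03. With TPM, the median of all genes in JJ012 became 0.27 and the share of higher genes among all changed ones went from 51.4% to 68.8%, while the listed genes still counted 3 higher and 5 lower. The log2 fold change over all genes had a Spearman correlation with exonic length of 0.24 in JJ012 and -0.01 in 143B, given as a description over 15794 and 14135 genes. The listed genes that passed in JJ012 had exonic lengths from 703 (CCL26) to 15679 bases (NFKB1), with a median of 3302 against 4068 bases for all genes. In bulk RNA, fewer cells that transcribe a gene and less of its RNA per cell cannot be told apart.

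**Figure D3:**
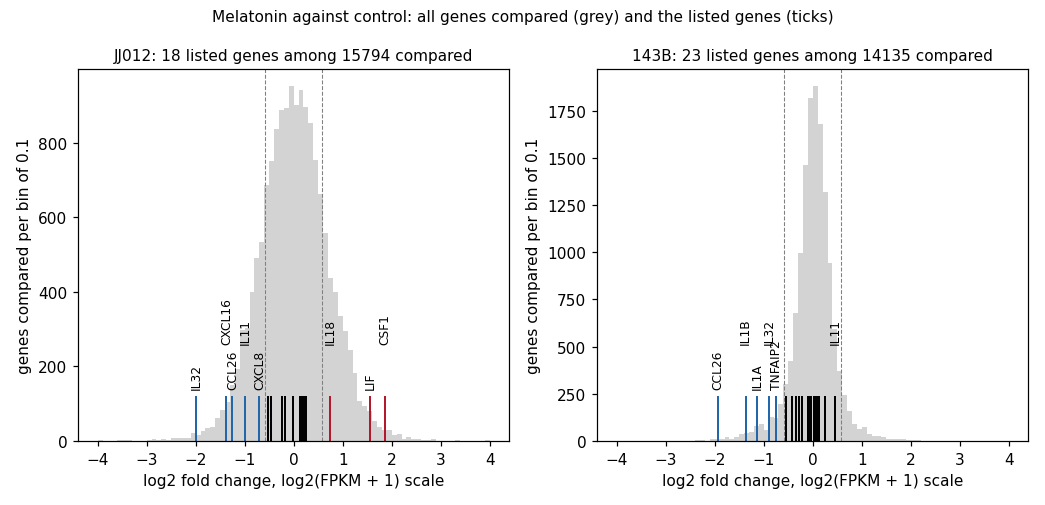
The grey histograms show the log2 fold changes of all genes compared in JJ012 (left, 15794 genes) and 143B (right, 14135 genes), and the ticks mark the 18 and 23 listed genes, red where they rose, blue where they fell and black otherwise, with dashed lines at 0.58 in each direction. CSF1 (1.87) and IL32 (-1.996) are the outermost ticks in JJ012, and CCL26 (-1.93) is the outermost in 143B.

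CCL26 and IL32 fell in both lines. CCL26, also called eotaxin-3, attracts eosinophils through CCR3. Its gene (ENSG00000006606, chr7:75769533-75789896, minus strand) overlaps no other gene of the table. CCL26 had 78 counts in untreated JJ012 and 21 after melatonin (5.77 and 1.85 FPKM), and 81 and 14 counts in 143B (7.25 and 1.16 FPKM). Both controls were near 80 counts and both treated libraries were at 21 or below. The log2 fold changes were -1.25 and -1.93. By CPM, CCL26 was 3.12-fold lower in JJ012 (95% interval 1.91 to 5.32) and 6.25-fold lower in 143B (3.52 to 11.9).

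IL32, a cytokine of T cells, natural killer cells and epithelial cells that induces other inflammatory cytokines, had 354 counts in untreated JJ012 and 36 after melatonin (5.74 and 0.69 FPKM). In 143B it had 92 and 28 counts (1.80 and 0.51 FPKM). Its log2 fold changes were -1.996 and -0.89, and by CPM it was 8.26-fold lower in JJ012 (interval 5.85 to 12.0) and 3.55-fold lower in 143B (2.303 to 5.63). Both treated libraries were below 1 FPKM. The gene (ENSG00000008517, chr16:3065297-3082192, plus strand) overlaps a small U1 pseudogene, RNU1-125P, on its own strand and an unnamed gene on the other. The fall of IL32 and CCL26 in JJ012 went with the lower leukocyte marker sum given above, and the sums of the other marker lists were lower too. Their part in it was not tested.

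Promoter windows of RefSeq (GRCh38.p14), 250 bases before to 50 after a start site, were matched by symbol to 29 of the 40 genes, in 38 windows. The genes with no window were CCL2, CCL5, CSF1, CSF3, CX3CL1, CXCL16, CLCF1, IL18, IL34, LIF and RELB. The κB consensus, the usual binding pattern of NF-κB, was found on either strand in 16 of the 38 windows (42.1%), which belong to 14 genes, against 11.3% of all 35116 windows. These genes were CCL20, CXCL1, CXCL2, CXCL3, CXCL5, CXCL6, CXCL10, IL6, IL32, NFKB1, NFKB2, NFKBIA, NFKBIZ and TNFAIP3. The 40 genes were listed as NF-κB and cytokine genes, so this share does not bear on the changes after melatonin. Of the genes that rose or fell, IL32 alone was among the 14, and CXCL16, IL18, LIF and CSF1 had no window. The AP-1 pattern TGANTCA was found in 6 windows (15.8%), those of CCL7, CXCL8, CXCL14, IL1A and IL11, against 7.71% of all windows. The STAT pattern, TTC and GAA with 4 bases between them, which reads the same on both strands, was found in 0 of the 38 windows and in 6.44% of all windows. The windows of the 2 genes that fell in both lines are shown here, with letters that match the κB consensus in capitals. Each window is set on the RefSeq start, which lies 106 bases from the start of the gene in the table for IL32 and 150 bases from it for CCL26. In IL32 (chr16:3065153-3065452, plus strand) the match lies from -99 to -89 and consists of an overlapping match on each strand. In CCL26 (chr7:75789697-75789996, minus strand) no letters are in capitals.
IL32: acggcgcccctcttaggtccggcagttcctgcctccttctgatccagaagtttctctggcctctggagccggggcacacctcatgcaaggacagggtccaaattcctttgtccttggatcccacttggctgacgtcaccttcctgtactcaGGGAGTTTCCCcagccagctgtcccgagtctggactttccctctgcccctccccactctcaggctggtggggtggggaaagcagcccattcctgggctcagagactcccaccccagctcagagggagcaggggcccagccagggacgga
CCL26: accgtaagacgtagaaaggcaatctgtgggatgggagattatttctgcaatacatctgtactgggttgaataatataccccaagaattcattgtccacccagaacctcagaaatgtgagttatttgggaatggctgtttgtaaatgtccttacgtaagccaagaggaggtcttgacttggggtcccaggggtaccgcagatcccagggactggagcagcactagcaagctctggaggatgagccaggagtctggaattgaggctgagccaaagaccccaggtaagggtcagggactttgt

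Chemokines with an ELR motif, which bind the neutrophil receptors CXCR1 and CXCR2, passed the filter as CXCL8 in both lines and CXCL1 in 143B. CXCL8 had 93 counts in untreated JJ012 and 32 after melatonin (1.87 and 0.77 FPKM), which gave a log2 fold change of -0.70 and made it 2.44-fold lower by CPM (interval 1.62 to 3.77). This call was lost with the length trend removed (-0.50). In 143B, CXCL8 had 2748 and 2540 counts (66.83 and 57.18 FPKM), a log2 fold change of -0.22. The 143B libraries therefore held far more CXCL8 than either JJ012 library, treated or not. CXCL1 in 143B had 104 and 109 counts, a log2 ratio of CPM of -0.04 with an interval of -0.44 to 0.36.

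CXCL16 fell in JJ012 from 576 to 159 counts (10.73 to 3.53 FPKM), which gave a log2 fold change of -1.37 and made it 3.04-fold lower by CPM (interval 2.55 to 3.65). In 143B it had 47 and 26 counts (1.06 and 0.54 FPKM). The log2 fold change there was -0.42, while the log2 ratio of CPM was -0.97 with an interval of -1.72 to -0.24. The gene overlaps ZMYND15 and MED11 on the other strand. CCL28 was measurable in 143B alone, with 201 and 124 counts (2.80 and 1.60 FPKM), which gave a log2 fold change of -0.55 and made it 1.75-fold lower by CPM (interval 1.39 to 2.21). CCL5, which attracts T cells and monocytes, had 29 and 17 counts in JJ012 and 11 and 19 counts in 143B, and both intervals included 0. CX3CL1, a membrane-anchored chemokine, had 18 and 4 counts in JJ012 and 0 in 143B, so its log2 ratio of -1.92 in JJ012 (interval -3.94 to -0.32) rests on few counts.

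**Figure D4:**
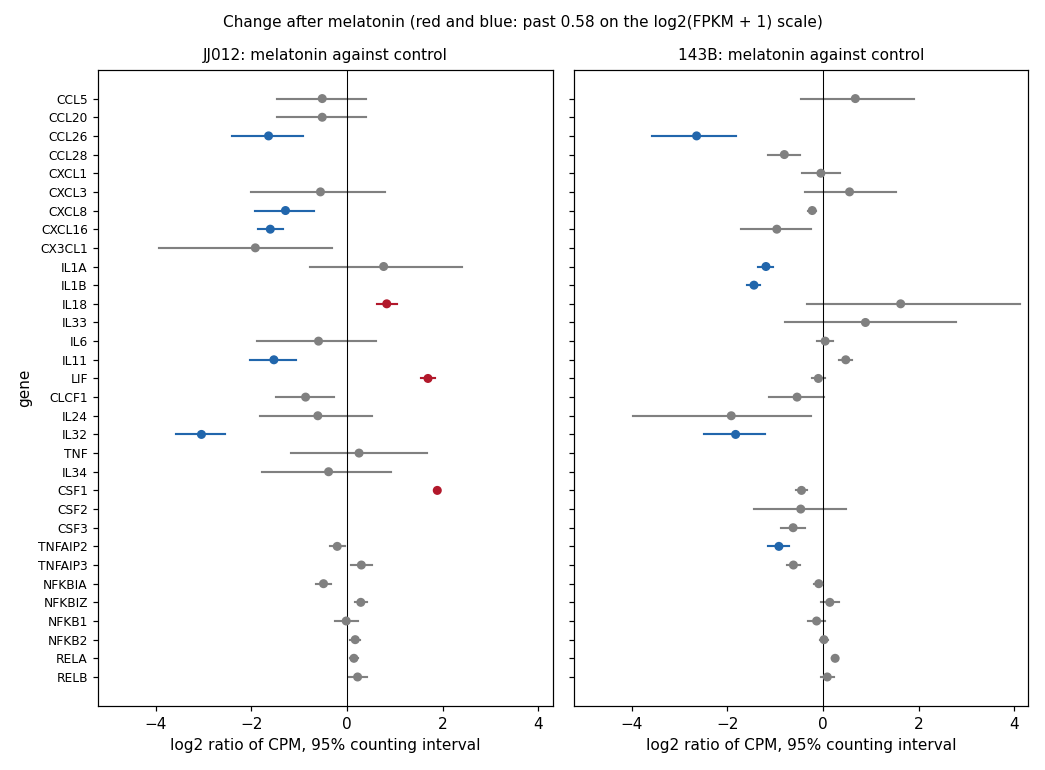
The points show the log2 ratio of CPM, melatonin over control, for genes with at least 10 counts in 1 library of the line and no count of 0, with bars for the exact 95% counting interval. Red and blue mark genes that rose or fell by 0.58 on the FPKM scale, and CCL26 and IL32 are the 2 genes in blue in both panels.

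The interleukin-1 genes moved in different lines. In 143B, IL1A fell from 1056 to 499 counts (32.95 to 14.41 FPKM) and IL1B from 1566 to 622 counts (32.75 to 12.04 FPKM). Their log2 fold changes were -1.14 and -1.37, and by CPM they were 2.29-fold (interval 2.05 to 2.55) and 2.72-fold lower (2.48 to 2.99). The genes lie close together on the minus strand of chromosome 2, IL1A (ENSG00000115008) at chr2:112773925-112784493 and IL1B (ENSG00000125538) at chr2:112829751-112836816. In JJ012, IL1A had 7 and 10 counts and IL1B 1 count in each library, so no change was detectable there. IL18 rose in JJ012 from 332 to 496 counts (6.63 to 11.79 FPKM), which gave a log2 fold change of 0.75 and made it 1.78-fold higher by CPM (interval 1.55 to 2.05). It had 3 and 10 counts in 143B. IL33, an alarmin, had 9 and 0 counts in JJ012, at least 2.52-fold lower, and 5 and 10 counts in 143B. The promoter windows of the pair of genes that fell in 143B are shown with the AP-1 pattern TGANTCA in capitals, which the IL1A window (chr2:112784444-112784743, minus strand) holds from -12 to -6 and from 38 to 44. The IL1B window (chr2:112836730-112837029, minus strand) holds no capitals.
IL1A: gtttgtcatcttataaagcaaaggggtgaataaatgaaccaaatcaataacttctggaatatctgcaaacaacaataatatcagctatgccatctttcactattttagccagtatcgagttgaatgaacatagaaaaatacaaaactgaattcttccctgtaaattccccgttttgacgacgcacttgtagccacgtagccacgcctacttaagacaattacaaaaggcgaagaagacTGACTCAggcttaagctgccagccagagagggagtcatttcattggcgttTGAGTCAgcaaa
IL1B: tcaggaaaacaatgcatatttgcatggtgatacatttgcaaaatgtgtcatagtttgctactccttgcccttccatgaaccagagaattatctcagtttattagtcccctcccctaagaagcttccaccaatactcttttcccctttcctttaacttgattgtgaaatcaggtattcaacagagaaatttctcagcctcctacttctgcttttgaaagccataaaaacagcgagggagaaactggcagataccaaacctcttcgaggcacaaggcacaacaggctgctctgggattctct

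The interleukin-6 family, which signals through IL6ST, was uneven. LIF, leukemia inhibitory factor, rose in JJ012 from 516 to 1402 counts (6.94 to 22.43 FPKM), which gave a log2 fold change of 1.56 and made it 3.23-fold higher by CPM (interval 2.92 to 3.58). In 143B it had 876 and 885 counts (14.24 and 13.32 FPKM), and the interval of its log2 ratio, -0.23 to 0.04, included 0. Its reads could include those of LIF-AS1 and LIF-AS2, which overlap it on the other strand, since no strand setting is stated. IL11, which promotes osteoclast formation, fell in JJ012 from 165 to 48 counts (3.21 to 1.11 FPKM), which gave a log2 fold change of -0.997 and made it 2.89-fold lower by CPM (interval 2.08 to 4.07). In 143B, IL11 had 711 and 1069 counts (16.71 and 23.26 FPKM), a log2 fold change of 0.45, which missed 0.58, and it was 1.39-fold higher by CPM (interval 1.26 to 1.53). IL11 overlaps no other gene of the table (ENSG00000095752, chr19:55364382-55370463, minus strand). Its promoter window (chr19:55370414-55370713, minus strand) is shown because the CPM ratios of IL11 had opposite signs in the lines, with the pattern TGANTCA in capitals from -96 to -90.
IL11: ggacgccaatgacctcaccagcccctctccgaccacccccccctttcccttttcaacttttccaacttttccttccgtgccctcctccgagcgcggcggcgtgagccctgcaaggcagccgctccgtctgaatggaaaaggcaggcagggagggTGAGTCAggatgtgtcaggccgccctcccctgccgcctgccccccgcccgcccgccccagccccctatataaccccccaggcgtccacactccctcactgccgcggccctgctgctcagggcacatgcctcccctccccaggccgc

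IL6 itself did not move past 0.58 in 143B, where it had 599 and 668 counts (8.72 and 9.01 FPKM) and an interval of its log2 ratio of -0.12 to 0.21. In JJ012 it had 18 and 10 counts. CLCF1, a further ligand of the family, had 76 and 35 counts in JJ012 (2.15 and 1.18 FPKM), a log2 fold change of -0.53, and 62 and 46 counts in 143B (2.13 and 1.46 FPKM), a log2 fold change of -0.35. With CPM as the scale, CLCF1 was 1.82-fold lower in JJ012 (interval 1.21 to 2.81). IL24 had 20 and 11 counts in JJ012 and 14 and 4 in 143B, with an interval of -3.98 to -0.25 around a log2 ratio of -1.92 in 143B.

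CSF1 had the largest rise of the listed genes. This gene (ENSG00000184371, chr1:109910242-109930992, plus strand) encodes the growth factor of macrophages and osteoclasts and overlaps no other gene of the table. In JJ012 it went from 4933 to 15336 counts (49.00 to 181.36 FPKM), which gave a log2 fold change of 1.87 and made it 3.70-fold higher by CPM (interval 3.58 to 3.82). In 143B it had 1485 and 1175 counts (17.84 and 13.07 FPKM), which gave a log2 fold change of -0.42 and made it 1.37-fold lower by CPM (interval 1.26 to 1.48). CSF1 made up 32.8% of the counts of the 40 genes in the JJ012 control and 62.5% after melatonin. The 40 genes summed to 783 and 1520 CPM in JJ012, and to 526 and 570 CPM without CSF1. In 143B they summed to 1316 and 1157 CPM. CSF3 had 321 and 225 counts in 143B (9.10 and 5.90 FPKM), a log2 fold change of -0.55, and CSF2 had 23 and 18 counts, with an interval that included 0. IL34, the other ligand of the CSF1 receptor, had at most 14 counts.

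The 4 listed NF-κB subunit genes showed small differences, and none of them passed 0.58 in either line. RELA had 2488 and 2310 counts in JJ012 (23.72 and 26.22 FPKM), a log2 fold change of 0.14, and 3120 and 4021 counts in 143B (35.98 and 42.93 FPKM), a log2 fold change of 0.25. NFKB2 had 12.92 and 14.55 FPKM in JJ012 and 26.86 and 27.27 FPKM in 143B. RELB had 8.28 and 9.65 FPKM in JJ012 and 18.52 and 19.71 FPKM in 143B, and NFKB1 had 1.06 and 1.04 FPKM and 2.14 and 1.95 FPKM. Over the 4 genes and both lines, the log2 fold changes lay between -0.09 and 0.25. With TPM the values in JJ012 were 0.20 for NFKB1, 0.42 for RELA, 0.44 for NFKB2 and 0.48 for RELB, beside the shift of 0.27 of all genes, and that of NFKB2 in 143B was -0.03. Their order between the lines, with 143B above JJ012 for each gene, was the same in the treated libraries as in the controls.

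Of the inhibitors and induced genes, TNFAIP2 alone passed 0.58 on the FPKM + 1 scale, in 143B. TNFAIP2, a TNF-inducible protein, fell there from 470 to 268 counts (5.85 to 3.09 FPKM), which gave a log2 fold change of -0.74 and made it 1.89-fold lower by CPM (interval 1.63 to 2.21). In JJ012 it had 803 and 585 counts (8.26 and 7.16 FPKM), a log2 fold change of -0.18, which became 0.07 with TPM. TNFAIP3, the deubiquitinase A20, had 324 and 335 counts in JJ012 (2.64 and 3.25 FPKM) and 1080 and 760 counts in 143B (10.63 and 6.93 FPKM). Its log2 fold changes were 0.22 and -0.55. NFKBIA, the IκBα inhibitor, had 926 and 553 counts in JJ012 (14.20 and 10.09 FPKM), a log2 fold change of -0.45, and 36.10 and 33.97 FPKM in 143B, a log2 fold change of -0.09. NFKBIZ had 9.02 and 11.01 FPKM in JJ012 and 4.80 and 5.30 FPKM in 143B. NFKBIZ overlaps NXPE3 on the same strand, and TNFAIP2, TNFAIP3 and RELA overlap LINC00677, WAKMAR2 and RELA-DT on the other. By the interval alone, 16 of the 18 genes in JJ012 differed beyond counting error, 8 in each direction, against 36.9% of all genes above and 35.2% below. In 143B, 2 were higher and 11 lower of 23, against 28.4% and 23.5% of all genes.

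A written list of 92 other genes of these pathways was set beside the 40, namely receptors, NF-κB signaling genes, NF-κB targets and genes that process cytokines. In JJ012, 12 of the 58 that passed the filter rose and 11 fell (39.7% against 38.2% of all genes), with a median log2 fold change of 0.08. With TPM, 22 rose and 10 fell, and 50.3% of all genes were past 0.58. In 143B, 2 of 61 rose and 3 fell (8.20% against 12.7%), with a median of -0.15. ACKR1, a chemokine receptor that does not signal through G proteins, fell from 332 to 11 counts (8.20 to 0.32 FPKM), and it overlaps CADM3 on its own strand. IL13RA2, a decoy receptor of IL-13, fell from 3499 to 1344 counts (111.97 to 51.20 FPKM). On the FPKM + 1 scale, the 3 largest rises were those of IL6R, from 717 to 2092 counts (5.34 to 18.53 FPKM), LIFR, from 574 to 1763 counts (2.46 to 8.98 FPKM), and SOD2, a mitochondrial antioxidant enzyme and NF-κB target, from 11977 to 25946 counts (34.35 to 88.58 FPKM). ACKR4, a scavenging chemokine receptor, had 2 and 44 counts (0.04 and 1.02 FPKM) and a log2 fold change of 0.96 on this scale, but its value of 2.24 with TPM was above those of the 3, and its log2 ratio of CPM was 4.71 (interval 2.77 to 7.80). LIF and LIFR, a ligand and its receptor, were thus 3.23-fold and 3.66-fold higher by CPM in JJ012. Neither moved past 0.58 in 143B, where LIFR had 4612 and 4836 counts. With the length trend removed, the log2 fold changes in JJ012 were 1.48 for IL6R, 1.18 for LIFR and 0.97 for SOD2. On the other strand, IL6R overlaps IL6R-AS1, LIFR overlaps LIFR-AS1, and SOD2 overlaps ACAT2 and WTAP. CASP1, which processes IL1B and IL18, fell in JJ012 from 222 to 66 counts, a log2 fold change of -0.95, and had 0 counts in 143B. The order of the falls after the first pair depends on the scale. PTGS2, the inducible cyclooxygenase, and TRAF1, a signaling adaptor, had -0.94 and -0.95 beside CASP1, but -1.49 and -1.16 with TPM against -1.06 for CASP1.

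The 3 genes of the list that fell in 143B were IL13RA2, from 68 to 12 counts (2.63 to 0.43 FPKM), IL1RAP, a co-receptor of IL-1, from 2073 to 1355 counts (11.29 to 6.83 FPKM), and IRAK1, a kinase below the IL-1 receptor, from 5558 to 3862 counts (82.03 to 52.77 FPKM). The 2 that rose were BCL2A1, an anti-apoptotic gene, from 585 to 1061 counts (37.00 to 62.12 FPKM), and PLAU, urokinase, from 26.74 to 42.93 FPKM. IL13RA2 was the single gene of this list that fell in both lines, with log2 fold changes of -1.11 and -1.34. IL1RAP rose in JJ012, from 492 to 976 counts (2.21 to 5.23 FPKM), and fell in 143B, with log2 fold changes of 0.96 and -0.65. Receptor genes differed between the lines in both directions. CCR3, the receptor of CCL26, had 215 and 286 counts in JJ012, where its gene overlaps CCR1 on the other strand, and 0 counts in both 143B libraries. CCR10, the receptor of CCL28, had 676 and 352 counts in JJ012 and 12 and 19 counts in 143B. Its log2 fold change of -0.63 in JJ012 was within 0.58 with TPM (-0.40), TMM (-0.55) and the length trend removed (-0.43). CSF1R had 140 and 54 counts in JJ012 and 11 and 2 in 143B. In contrast, CXCR4, the receptor of CXCL12, had 2 and 0 counts in JJ012 and 1626 and 1582 in 143B, ACKR3, which scavenges CXCL12, had 6 and 13 against 1932 and 1727, and IL6R had 3339 and 2743 counts in 143B.

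**Figure D5:**
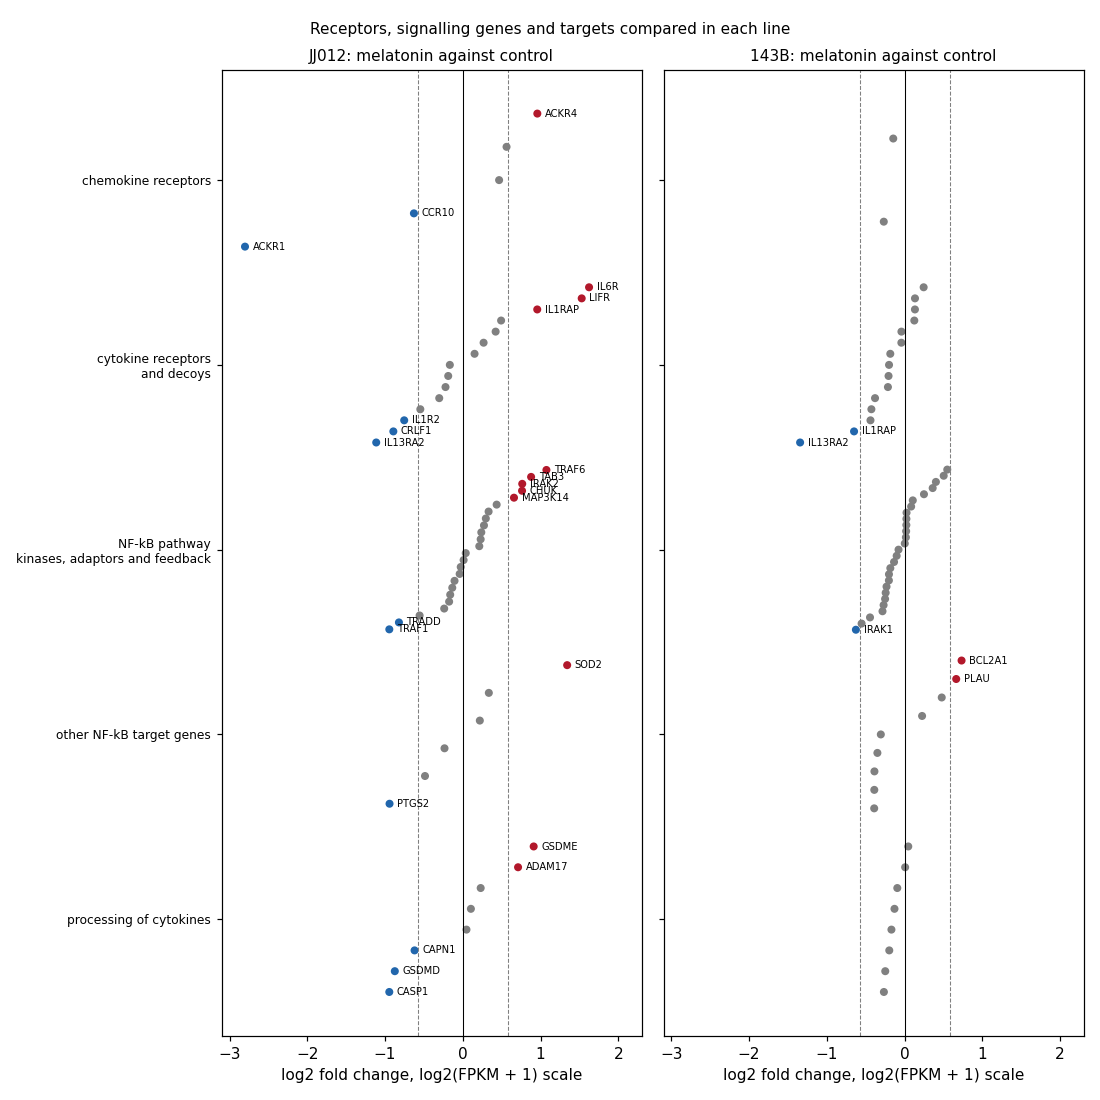
Each point is a gene of the written list that passed the 1 FPKM filter in JJ012 (left) or 143B (right), placed by its log2 fold change and grouped by role, with dashed lines at 0.58 in each direction and names for the genes past them. In JJ012, 23 genes lie past the lines in both directions, and in 143B 5 genes do.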

How the data were processed

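Poly(A) RNA of 4 libraries was sequenced as paired ends. The deposited table of the authors holds raw counts per gene as whole numbers, and FPKM, which are these counts per kilobase of exonic length and scaled to a library total of 1000000, to 2 decimals. Per the labels, the tools were cutadapt 1.9.1, HISAT2 2.2.1 and HTSeq 0.6.1 with hg38. The strand setting is not given in the sources used here. Columns were matched to samples by cell line, and the suffix T was read as melatonin. The exonic length, deposited by the authors, was used for the length trend. The 40 genes and the other lists were chosen with earlier results of these data known.

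The log2 fold changes used a pseudocount of 1 FPKM, a filter of 1 FPKM in 1 of 2 libraries and a threshold of 0.58, the fold threshold of the study. No count test was used, since each comparison had 1 library per condition and edgeR's quasi-likelihood test needs replicates. CPM ratios have exact 95% intervals that cover counting error only, since 1 library per condition holds no spread between cultures. PCR copies are not independent molecules, so the intervals can be too narrow even for counting error. The floor was 3 counts. The settings tried were a pseudocount of 0.1, no filter, 5 FPKM, TPM, CPM, TMM (edgeR 4.0.16), median centring, removal of the running median over 501 genes ordered by exonic length, and a threshold of 1. Genes are named where they passed 0.58 in a line, reached 1 FPKM in all 4 libraries, or had 10 counts and an interval on 1 side of 0. From the written list, up to 3 largest changes per direction and line and genes changed in both lines are named. ACKR4, PTGS2, TRAF1, REL and the receptors set beside their ligands were chosen after their values were seen. The procedures were tested on simulated counts. Python 3.11.15, numpy 2.4.6, scipy 1.17.1, pandas 2.3.3 and R 4.3.3 were used, with GENCODE 29 for transcripts.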

Additional observations from a re-analysis of the deposited data

Results flagged for a closer look

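Among the genes with at least 1 FPKM in both lines and a change past 0.58 in at least 1, 9 had CPM ratios on opposite sides of 0 in JJ012 and 143B, each beyond its counting error. The difference between the lines was not tested, since each rests on 1 library per condition. Among the 40 genes these were IL11, with log2 ratios of -1.53 in JJ012 and 0.48 in 143B, and CSF1, with 1.89 and -0.45. Among receptors they were IL1RAP, with 1.24 and -0.72, and IL6R, with 1.80 and -0.40. Among signaling genes they were TRADD, with -0.87 and 0.40, and IRAK2, with 1.00 and -0.22. The target SOD2 had 1.37 and -0.38, the pore-forming gene GSDME 0.97 and -0.28, and the sheddase ADAM17 0.80 and -0.18. With the length trend removed, the log2 fold changes in JJ012 were -0.48 for TRADD and 0.40 for ADAM17, within 0.58.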

How the results depend on the processing

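No paired analysis was possible because each comparison lies within 1 line and has 1 library per condition. A fit with the 2 lines as pairs would ask for an effect shared by the lines and was not run. Of the 5 counts of changed genes, 35 of 45 alternative values lay within 1.5 times the main count. In 143B, the number of the 40 genes that changed was 5, and it was 9 with a pseudocount of 0.1 FPKM (20.9% of all genes then changed), 9 with TPM (19.3%), 9 with CPM (11.4%) and 8 with the length trend removed (12.3%), all of them lower after melatonin. With a threshold of 1 it was 3 in 143B (4.45%), and 5 in JJ012 in place of 8 (14.7%). Of the other pathway genes, 5 changed in 143B, and 8 did so with a pseudocount of 0.1 FPKM, 8 with CPM and 1 with a threshold of 1. In JJ012, 23 changed, and 6 did so with a threshold of 1. No setting reversed the direction of any of the 41 changes of single genes past 0.58, over 317 alternative values. A stricter filter of 5 FPKM leaves fewer genes. The cause of the other shifts was not tested. Without replicates, differences between cultures were not measured, and genes with fewer than about 10 counts allow wide ratios.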
